A study of Mus musculus with 31 samples.

Results

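The small RNA left in mouse embryonic stem cells after 12 days of Dicer1 loss was compared with that of the untreated cells, in 6 of the 31 libraries of the series. Members were all mature microRNA entries of the small RNA count table, 1907 identifiers after the copies of 1 identifier were summed, and the reads that no microRNA received. The cells were DTCM23/49 XY conditional Dicer mutant embryonic stem cells, grown with LIF on gelatin. Day 12 stands for 3 libraries of cells kept for 12 days in 800 nM 4-hydroxytamoxifen (4-OHT), the drug that induces the loss of Dicer1 function. Day 0 stands for 3 libraries of the same conditional mutant cells with 0 days of 4-OHT, which carry the same "Dicer depleted" genotype label. Every library was thus of conditional mutant cells, and effects of 4-OHT or of time in culture cannot be told apart from Dicer1 loss. The labels number the libraries as biological replicates and give no more on their source, so p-values measure the spread between these libraries.

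Dicer is the enzyme that cuts the hairpin precursors of microRNAs into short duplexes. One strand of the duplex, the 5p or the 3p arm, is usually kept in an Argonaute protein and guides it to messenger RNAs through its seed, bases 2 to 8, while the other strand decays. Mouse embryonic stem cells are known for the miR-290 and miR-302 clusters, whose shared seed promotes passage from G1 to S phase, and for the miR-17 cluster and its relatives. MicroRNAs made before Dicer is lost can persist, since loaded strands can be stable, and reads of other RNAs can fall on microRNA entries.

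The sequences below, from RefSeq on GRCm38.p6, were chosen because they carry the main contrasts of the residual pool, with the seed in capitals. The first pair is the abundant miR-182 and its other arm, followed by miR-183-5p of the same cluster. Next come the leading stem cell microRNAs miR-295-3p, with its other arm, and miR-92a-3p, and then miR-21a and miR-127. The last 5 are entries that kept most of their level.
miR-182-5p: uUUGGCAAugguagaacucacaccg
miR-182-3p: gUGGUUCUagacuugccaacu
miR-183-5p: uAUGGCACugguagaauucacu
miR-295-3p: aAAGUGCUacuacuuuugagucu
miR-295-5p: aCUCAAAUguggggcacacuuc
miR-92a-3p: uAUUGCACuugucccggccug
miR-21a-5p: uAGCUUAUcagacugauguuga
miR-127-3p: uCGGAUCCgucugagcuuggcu
miR-2137: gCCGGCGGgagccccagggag
miR-6240: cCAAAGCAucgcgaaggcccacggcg
miR-6236: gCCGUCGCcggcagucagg
miR-5126: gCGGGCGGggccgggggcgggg
miR-6538: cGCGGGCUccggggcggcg
miR-182-5p lies at chr6:30165962-30165986 on the minus strand, miR-295-3p at chr7:3220815-3220837 on the plus strand and miR-21a-5p at chr11:86584120-86584141 on the minus strand, in an exon of Vmp1. miR-2137 lies at chrX:72992113-72992133 on the plus strand, in an intron of Zfp185, miR-6240 at chr5:114851973-114851998 and miR-6236 at chr9:110281353-110281371, both on the plus strand and in no annotated host gene. The guanine and cytosine (GC) content of miR-2137, miR-6236 and miR-6538 was 85.7%, 78.9% and 94.7%, and every base of miR-5126 is a G or a C.

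MicroRNA reads were few at day 12. They numbered 81513, 54290 and 51984 in the day 12 libraries, against 2315313, 2366940 and 1806355 in the day 0 libraries, out of 11134202 to 14850789 reads per library in all. As a share of all reads this was 0.619, 0.366 and 0.361% at day 12, against 19.3, 21.3 and 15.8% at day 0, with no overlap (exact two-sided permutation test of 3 against 3, which cannot give less than p = 0.1, p = 0.1). Counts were therefore read on a pair of scales: reads scaled to 1000000 reads of all kinds in a library (RPM), which shows how much of an entry was left, and a scale relative to other microRNAs (TMM normalization), which shows how its place among them changed.

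The reads that no microRNA received changed their make-up as well. Uniquely aligned reads outside any microRNA were 24.7, 24.8 and 26.5% of all reads at day 12, against 16.2, 16.3 and 16.9% at day 0. Reads of low mapping quality, among which reads that align to several places can fall, were 53.1, 62.1 and 58.2% at day 12, against 43.5, 42.6 and 40.1% at day 0. Both classes were higher at day 12 without overlap (exact permutation p = 0.1 each; adjusted over the 4 classes of reads without a microRNA, p = 0.133). Reads that did not align were 21.5, 12.8 and 15.0% at day 12 and 21.03, 19.9 and 27.1% at day 0, and the days overlapped (exact permutation p = 0.3).

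A share lost by microRNAs is gained by the rest, so the classes were also taken over the reads not on microRNAs. There, reads outside any microRNA were 25.4% ± 0.992 at day 12 and 20.2% ± 0.337 at day 0 (SD, n = 3 each), still without overlap. Low mapping quality reads were then 58.1% ± 4.45 at day 12 and 51.9% ± 3.67 at day 0 and overlapped (exact permutation p = 0.3). Unaligned reads were 16.5% ± 4.62 at day 12 and 27.8% ± 3.82 at day 0, here without overlap (exact permutation p = 0.1). So the higher share of reads outside microRNAs was seen over all reads and over reads not on microRNAs. The overlap of the days in low mapping quality and unaligned reads depended on this denominator. With unaligned reads also left out, the share of reads outside microRNAs overlapped between days. Day 12 replicate 2 then had 3676614 such reads to 9224660 of low mapping quality, against 1931908 to 4572994 in day 0 replicate 3.

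Of the reads with 1 good alignment, microRNAs held 1.75% ± 0.605 at day 12 and 53.1% ± 4.31 at day 0. Reads that fell on more than 1 microRNA entry, which the counting program sets aside as ambiguous, were 0.000234% ± 8.23e-05 of all reads at day 12 and 0.0479% ± 0.00609 at day 0, 205-fold lower. There were 0.0368 to 0.0885 of them per 100 microRNA reads at day 12, against 0.243 to 0.265 at day 0, so they fell by more than microRNA reads did. The alignments reported as not unique were 0 in all 6 libraries. Reads that align to several places are thus not told apart from other reads of low mapping quality in these counts.

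**Figure D1:**
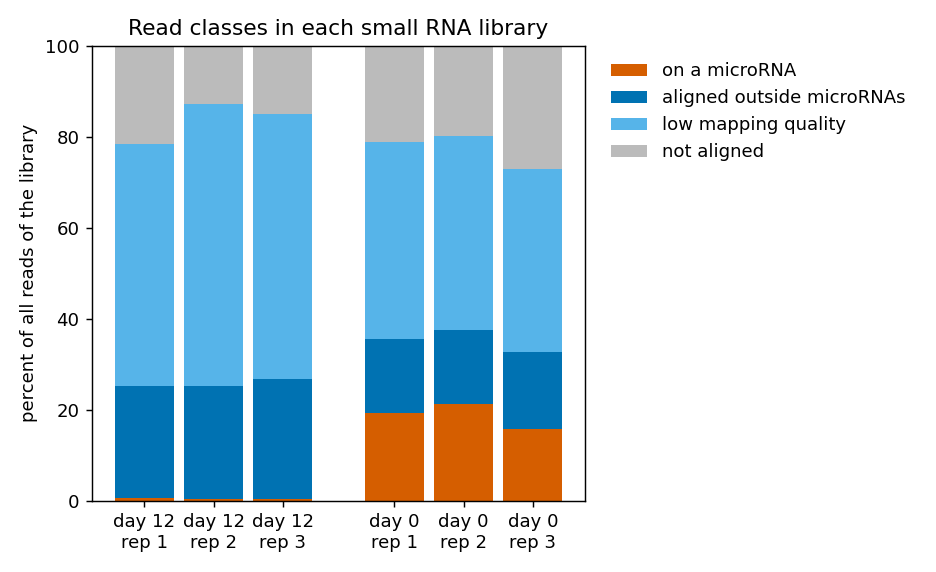
Stacked bars give the percent of all reads of each library that fell on microRNAs, aligned outside them, had low mapping quality or did not align (y axis), for 3 day 12 libraries and 3 day 0 libraries. The microRNA part is 0.361 to 0.619% at day 12, hardly visible, against 15.8 to 21.3% at day 0; ambiguous reads are too few to draw.

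The residual pool was narrower than the untreated one. The effective number of microRNAs, the exponential of the Shannon entropy of their shares, was 11.6, 14.7 and 16.1 at day 12, against 34.4, 33.2 and 35.1 at day 0 (exact permutation p = 0.1). The 10 most abundant entries of a library held 86.4% ± 1.64 of microRNA reads at day 12 and 63.9% ± 0.504 at day 0. Entries with at least 1 read numbered 405, 375 and 396 at day 12, against 882, 877 and 858 at day 0. At equal depth that last gap was smaller: at 51984 reads drawn from each library, 374 ± 20.2 entries would be seen at day 12 and 403 ± 6.54 at day 0. Without the structural entries described next, at 21470 reads, the direction turned, with 353 ± 34.6 at day 12 and 315 ± 4.96 at day 0, and the days overlapped (exact permutation p = 0.3). Over the 3 libraries of a day, 551 identifiers had reads at day 0 and none at day 12. The reverse held for 39, which had 77 reads in all and at most 14 for 1 identifier, miR-181a-5p, whose 14 reads were all in day 12 replicate 1.

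A mean of 52.7% ± 9.25 of what remained fell on a few entries that miRBase lists as microRNAs and that were put on a list of possible fragments of ribosomal or other structural RNA. This list was written with earlier results of these data known, so its behaviour is no independent evidence. Of its 10 entries 8 had reads. They are called structural entries below as a name only. None of those tested overlaps an annotated structural RNA gene, and what their reads are was not tested. They held 42.5, 60.4 and 55.2% of microRNA reads at day 12, against 1.31, 1.22 and 1.57% at day 0. In RPM they summed to 2627, 2210 and 1992 at day 12 and to 2521, 2599 and 2485 at day 0, a ratio of 89.8% with overlap (exact permutation p = 0.4). Their share of the pool was thus larger at day 12 while the summed levels of the days overlapped.

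Outside this list, the miR-182 cluster (miR-182, miR-183 and miR-96, known from sensory organs) held 40.6, 20.6 and 24.5% of microRNA reads at day 12, against 22.1, 23.2 and 21.9% at day 0, and the days overlapped. Of the reads outside the structural list, miR-182-5p alone held 62.1, 40.3 and 42.1% at day 12, against 20.1, 21.3 and 20.2% at day 0, without overlap. miR-21a, a widely expressed microRNA, held 4.77, 5.06 and 4.19% at day 12, against 4.29, 4.29 and 4.23% at day 0. The stem cell clusters lost their place: the miR-290 cluster held 3.17% ± 0.577 at day 12 and 18.9% ± 0.651 at day 0, and the miR-17, miR-106a and miR-106b clusters together 2.09% ± 0.517 at day 12 and 15.0% ± 0.256 at day 0. The miR-302 cluster held 0.228% ± 0.0510 at day 12 and 1.40% ± 0.101 at day 0. The imprinted Dlk1-Dio3 cluster held 0.238, 1.03 and 0.317% at day 12, against 8.05, 8.06 and 7.67% at day 0. Leaving the structural entries out, microRNAs made up 0.221% ± 0.117 of all reads at day 12 and 18.5% ± 2.74 at day 0. That is 84.0-fold lower, with 1.19% kept, and 0.826% kept without day 12 replicate 1. With all entries the share was 41.9-fold lower, with 2.385% kept. The list was written with earlier results known and its summed levels overlapped between days, so leaving it out makes the fold larger.

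**Figure D2:**
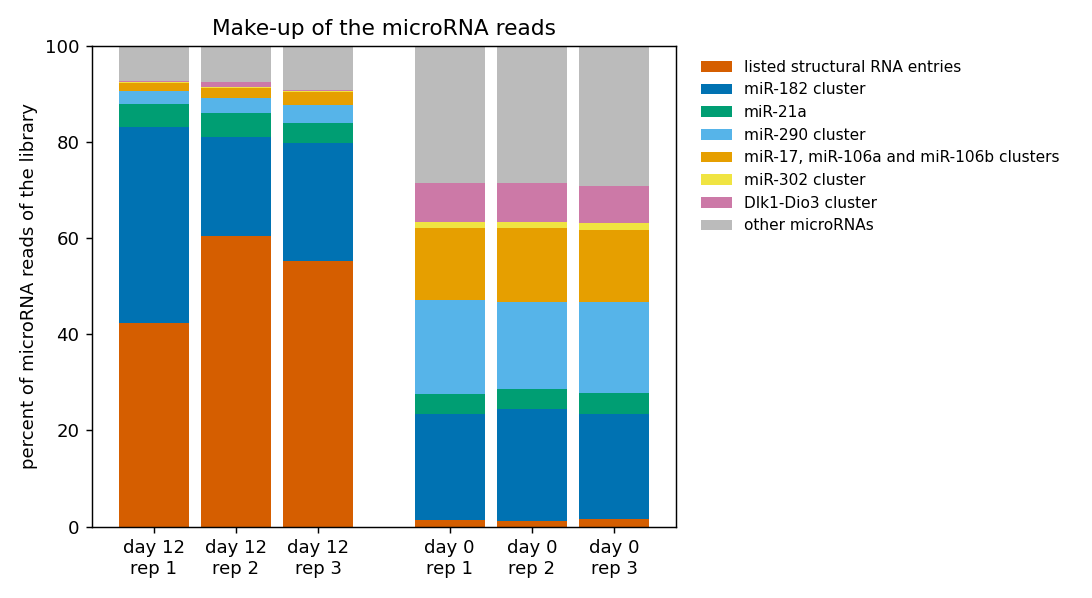
Stacked bars give the make-up of the microRNA reads of each library in percent (y axis), for 3 day 12 libraries and 3 day 0 libraries. Structural entries and the miR-182 cluster together fill most of each day 12 bar, while the miR-290 and miR-17 related clusters and the Dlk1-Dio3 cluster hold 3.17, 2.09 and 0.527% at day 12, against 18.9, 15.0 and 7.93% at day 0.

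Of 260 entries with enough reads to be tested, 240 were lower at day 12 in RPM, which is 92.3% of those tested, and 3 were higher, 1.15%, so that 243 or 93.5% changed (edgeR quasi-likelihood test in 1 model of all small RNA libraries, adjusted over the 260 by Benjamini and Hochberg, threshold 0.05). Relative to other microRNAs 77 were higher, 29.6% of those tested, and 103 lower, 39.6%, so that 180 or 69.2% changed in either direction. Of the 77 higher calls, 46 were of entries under the day 0 level described next, and among the 204 entries that reached it 31 were higher and 103 lower. In 242 entries (93.1%) every day 12 library was under every day 0 library in RPM. With total microRNA reads in place of TMM the relative split was 54 higher and 181 lower. The test kept an entry if it reached 83.9 reads per 1000000 microRNA reads in enough libraries of any day, a level that equals 15.8 RPM at day 0 and 0.376 RPM at day 12. An entry below it in a day 0 library could pass only with the help of libraries of later days, where its place among microRNAs was higher. Levels kept are therefore described for the 204 entries that reached it in every day 0 library.

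Of these 204 entries, 164 kept under 1% of their mean day 0 RPM, 28 kept 1 to under 5%, and 12 kept 5% or more. Their median was 0.402%, or 0.406% with entries unread at day 12 set at the limit of 3 reads. Of the 12, 8 kept at least 25%: miR-2137, miR-6240, miR-5099, miR-6539, miR-6236 and miR-5126 of the structural list, the 3p arm of miR-182, and miR-3535. In RPM 198 of the 204 were lower, 2 higher and 4 not past the threshold. Of the 324 entries with a mean of at least 50 reads at day 0, chosen without this filter, 234 kept under 1%, the median was 0.460%, 13 kept at least 25%, and 30 had no read at day 12.

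**Figure D3:**
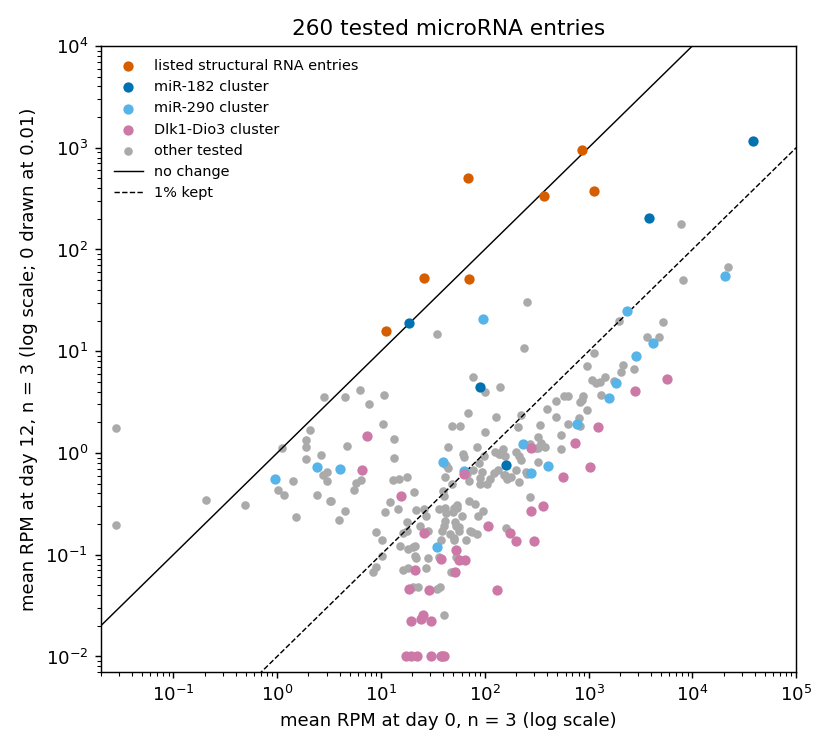
Each point is 1 of 260 tested entries, with mean RPM over 3 day 12 libraries (y axis, log scale) against mean RPM over 3 day 0 libraries (x axis, log scale). Most points with over 100 RPM at day 0 lie under the dashed line of 1% kept, many Dlk1-Dio3 entries lie lowest, and structural entries lie near or above the solid line of no change; entries unread at day 12 are drawn at 0.01.

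Most entries of the structural list stood near their day 0 level or above it. miR-6240 was at 500.2, 520.9 and 479.2 RPM at day 12, against 60.7, 52.4 and 91.8 RPM at day 0, higher in every library (log2 change 2.87, SE 0.328, edgeR adjusted p = 4.51e-09). miR-6236 was at 36.0, 66.5 and 53.4 RPM at day 12, against 33.8, 20.4 and 23.4 RPM at day 0, also without overlap (log2 1.01, adjusted p = 0.0130). This call was lost without day 12 replicate 2 (adjusted p = 0.0570) or without day 0 replicate 2 (adjusted p = 0.0687). miR-2137, the second most abundant entry at day 12, was at 1180, 906.8 and 762.7 RPM, against 884.5, 712.5 and 1008 RPM at day 0, and the days overlapped (log2 0.13, adjusted p = 0.642). miR-6539, in an intron of Dock5, was at 394.6, 318.4 and 293.6 RPM at day 12, against 376.3, 424.7 and 308.3 RPM at day 0 (adjusted p = 0.612). miR-6538, in an intron of Rnf144a, was at 17.1, 13.3 and 16.9 RPM at day 12, against 12.4, 8.71 and 12.4 RPM at day 0, higher without overlap but not past the threshold (adjusted p = 0.0764, and adjusted p = 0.0430 by DESeq2). Not all of the list held its level: miR-5099 was at 429.3, 340.6 and 346.4 RPM at day 12, against 1074, 1319 and 970.0 RPM at day 0, lower in every library with 33.2% kept (log2 -1.59, adjusted p = 1.80e-06).

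Some of the entries that held their level are rich in GC. Of the 227 tested entries with a RefSeq sequence, 7 had at least 70% GC, and 3 of the 7 reached the day 0 level: miR-2137, miR-6236 and miR-5126, all on the structural list, with 109, 201 and 72.03% kept. The other 4, miR-6538, miR-5122, miR-700-3p and miR-339-3p, did not reach that level and could pass only with the help of libraries of later days. Their 142, 42.2, 16.03 and 3.66% kept are given as values only. An annotated small nucleolar RNA, a guide of ribosomal RNA modification, or a relative of it overlapped 6 tested entries, of which miR-3535, within the small nucleolar RNA Gm24148 in Ncl, reached the day 0 level and kept 42.4%. The other 5 were under it: miR-5121, within Snord33 in Rpl13a, kept 79.3%, miR-677-5p 35.2%, miR-3068-3p 18.3%, miR-664-5p 6.01% and miR-1839-5p 4.10%. Which of these reads are Dicer products was not tested.

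The third entry called higher in RPM rested on few reads. miR-30c-5p, of the widely expressed miR-30 family, had 56, 1 and 13 reads at day 12 (4.25, 0.0673 and 0.902 RPM), against 1 read over the 3 day 0 libraries (log2 5.49, adjusted p = 0.00641, and adjusted p = 0.0898 without day 12 replicate 1). It has 2 loci of the same mature sequence, and reads that align to several places can fall under the mapping quality limit. Of the 6 tested entries with 2 or more loci, only miR-92a-3p reached the day 0 level, so the levels kept by the others, miR-30c-5p among them, were bound by the filter. miR-16-5p was at 5.16, 2.09 and 3.47 RPM at day 12, against 3.00, 3.68 and 1.75 RPM at day 0 (adjusted p = 0.535), and miR-26a-5p had 9, 0 and 5 reads at day 12 (adjusted p = 0.513). miR-6239, with 14, 15 and 19 reads at day 12, was likewise not past the threshold (adjusted p = 0.931). These levels count only the reads that passed the quality limit.

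The miR-182 cluster kept more than the abundant stem cell clusters, and its members differed from one another. miR-182-5p, the most abundant entry on each day, was at 2211, 582.1 and 679.9 RPM at day 12, against 38180, 44620 and 31430 RPM at day 0, lower in every library (log2 -5.04, SE 0.441, adjusted p = 2.14e-11). Day 12 replicate 1 was the high library, and without it 1.66% was kept in place of 3.04%. miR-183-5p was at 271.7, 150.6 and 185.2 RPM at day 12, against 4099, 4302 and 3018 RPM at day 0, with 5.32% kept (log2 -4.23, adjusted p = 4.03e-12). miR-96-5p, from the same primary transcript, kept 0.480%, near the median of 0.402%, and miR-183-3p 4.94%. Relative to other microRNAs 4 of the 5 tested members were higher and none lower, with miR-96-5p not past the threshold (log2 -0.69, adjusted p = 0.0990).

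miR-21a-5p kept 2.31%. It was at 235.2, 176.2 and 127.9 RPM at day 12, against 8007, 8851 and 6456 RPM at day 0 (log2 -5.43, adjusted p = 2.38e-14). On the TMM scale it was higher relative to other microRNAs (log2 1.595). Its mean share of microRNA reads was not larger, at 4.055% at day 12 and 4.131% at day 0. The remaining abundant microRNAs lost more. miR-22-3p was at 77.9, 38.2 and 33.4 RPM at day 12, against 8504, 8881 and 7168 RPM at day 0, with 0.609% kept. miR-298-5p kept 0.370%, miR-191-5p 0.291% and miR-292a-5p, of the miR-290 cluster, 0.290%.

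The stem cell seed families fell together, as did most entries: the 204 entries that reached the day 0 level kept a median of 0.402%. miR-295-3p, the leading microRNA of the miR-290 cluster, was at 60.3, 45.6 and 58.5 RPM at day 12, against 21700, 22340 and 18070 RPM at day 0, 0.265% kept (log2 -8.56, SE 0.336, adjusted p = 3.17e-17). The 5 tested microRNAs with a RefSeq sequence and the seed AAGUGCU, miR-295-3p, miR-294-3p, miR-291a-3p, miR-302b-3p and miR-302d-3p, kept between 0.185 and 0.302%, although they come from separate clusters. miR-302a-3p, of the miR-302 cluster, had no matched RefSeq sequence to be grouped by and kept 0.387%. The sequences of miR-294-3p and miR-291a-3p show the shared seed and the divergent remainder.
miR-294-3p: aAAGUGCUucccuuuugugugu
miR-291a-3p: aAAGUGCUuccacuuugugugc
The 5 with the seed AUUGCAC, miR-92a-3p, miR-92b-3p, miR-25-3p, miR-363-3p and miR-367-3p, kept between 0.224 and 0.471%. miR-92a-3p, the most abundant of them and made from 2 clusters, miR-17 and miR-106a, was at 77.5, 53.1 and 70.8 RPM at day 12, against 22060, 25430 and 17940 RPM at day 0 (log2 -8.34, adjusted p = 5.11e-17). The 6 with the seed AAAGUGC, among them miR-17-5p, miR-20a-5p and miR-93-5p, kept between 0.115 and 0.956%. A shared seed did not always go with a like loss: of the 6 with the seed AGCAGCA, the miR-15 family, the range was 0.236 to 127%, the upper end being the 2-locus miR-16-5p, which was under the day 0 level of the filter.

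The microRNA groups differed in how much was kept. As sums of RPM the miR-182 cluster kept 3.28%, the miR-15 family, which restrains the cell cycle, 3.01%, the let-7 family, typical of differentiated cells, 2.08%, and the miR-34 family, known as p53 targets, 1.51%. Without day 12 replicate 1 this order changed, as the miR-182 cluster kept 1.94%, the miR-15 family 2.42% and the let-7 family 2.18%. Of the miR-15 family sum of 11.2 RPM at day 12, 3.57 RPM came from the 2-locus miR-16-5p, which was under the day 0 level of the filter. The place of this family thus rests in part on that entry. The miR-30 family kept 0.702%, the miR-99/100 and miR-125 families 0.492%, the miR-290 cluster 0.389%, the miR-302 cluster 0.385% and the miR-17 cluster 0.318%. The miR-26 family kept 0.769% (0.508% without day 12 replicate 1), the miR-23/27/24 clusters 0.389%, the Nespas microRNAs miR-296 and miR-298 0.376%, the family of miR-130 and miR-301 0.354%, the miR-106b cluster 0.338%, the family of miR-148 and miR-152 0.319%, the miR-200 family 0.311%, the miR-106a cluster 0.272% and the Sfmbt2 cluster 0.220%. Each of these sums was lower at day 12 without overlap (exact permutation p = 0.1 each). The sums of let-7 and miR-34 rest on 57 and 179 reads at day 12.

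Classes that bypass Drosha, the nuclear enzyme ahead of Dicer, fell like the rest. Mirtrons, which are spliced introns, kept 0.454%, and miR-320 and miR-484, whose hairpins are capped transcripts, 0.567%; both classes still need Dicer. MicroRNA entries noted as derived from small nucleolar or transfer RNA (miR-1839, miR-664 and miR-1983) kept 1.39%. miR-451a, which is matured by Argonaute 2 without Dicer, was at 0.152, 0.202 and 0.0694 RPM at day 12, from 6 reads in all, against 0, 0.269 and 0.876 RPM at day 0, too few to compare.

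**Figure D4:**
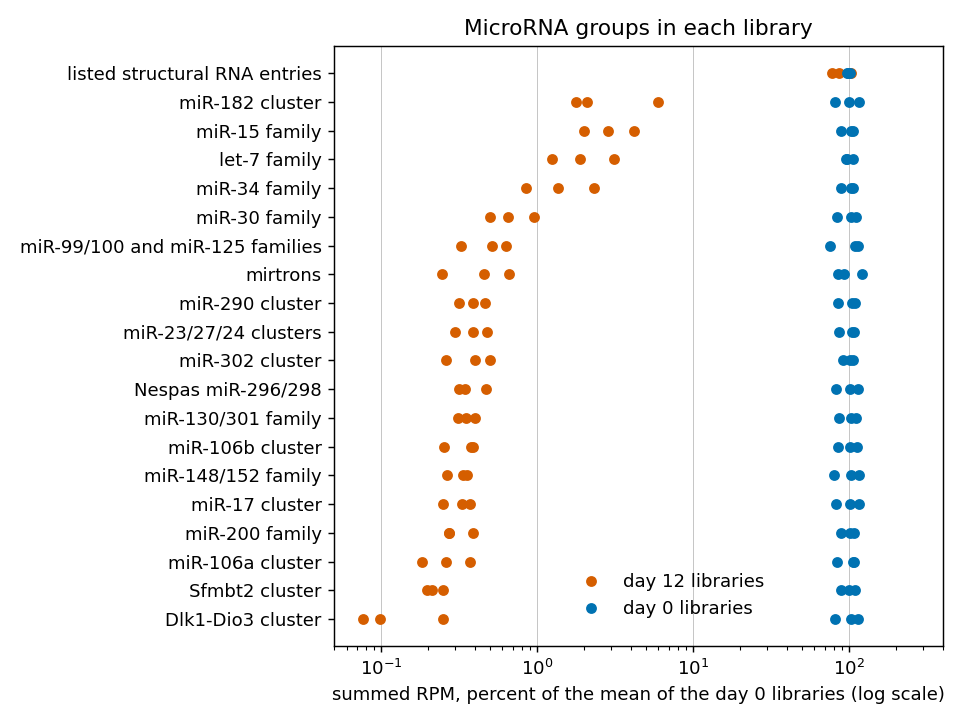
Each point is 1 library: the summed RPM of a microRNA group as a percent of the mean of the 3 day 0 libraries (x axis, log scale), for 20 groups (y axis). Day 12 points lie near 100% for the structural entries, between 1.79 and 5.97% for the miR-182 cluster, and between 0.0767 and 0.251% for the Dlk1-Dio3 cluster, where 1 library stands to the right.

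Markers of other cell types were at or near 0, or lower, at day 12. Muscle (miR-1a, miR-133a, miR-206) and liver (miR-122) entries had 0 counted reads on either day. Neural entries (miR-124, miR-9) had 3 reads at day 12 and 12 at day 0. For an entry with 1 locus, 0 reads at day 12 allow up to 0.0707 RPM, the level of 3 reads over the 3 libraries. Reads of an entry with 2 or more loci can fall under the mapping quality limit, so its 0 sets no such bound. The fibroblast or feeder list summed to 1.29, 0.673 and 4.16 RPM at day 12, against 357.0, 379.3 and 289.2 RPM at day 0, the blood list (miR-142a, miR-223, miR-150) to 1.90, 1.95 and 2.57 RPM at day 12, against 736.8, 757.9 and 586.2 RPM at day 0, and the red cell list to 0.139 to 0.228 RPM at day 12, against 1.42 to 3.15 RPM at day 0. As microRNAs at large were lower, these levels do not tell which cells were present.

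The deepest losses were in the Dlk1-Dio3 cluster, a group of maternally expressed microRNAs on chromosome 12. As counted, 19 of the 204 entries that reached the day 0 level kept under 0.1%, 18 of them of this cluster. The other was miR-142a-3p, with 0.0619% kept and read only in replicate 1 at day 12. With entries of fewer than 3 day 12 reads set at the limit of 3 reads, 8 of the 204 entries that reached the day 0 level kept under 0.1%, and all 8 were of this cluster: miR-127-3p, miR-434-3p, miR-381-3p, miR-300-3p, miR-431-5p, miR-540-3p, miR-341-3p and miR-758-3p. On the same footing the 35 cluster entries that reached the level kept a median of 0.182%, against 0.481% for the 169 others. miR-127-3p, its most abundant member, was at 2.43, 11.9 and 1.804 RPM at day 12, against 6197, 6479 and 4554 RPM at day 0 (log2 -10.05, SE 0.623, adjusted p = 1.42e-14), and kept 0.0368% without day 12 replicate 2 in place of 0.0937%. miR-540-3p had 1, 5 and 0 reads at day 12, and miR-758-3p 0, 2 and 0. In all, 7 tested entries had no read at day 12: miR-376b-3p, miR-411-3p, miR-543-3p, miR-487b-3p, miR-679-5p, miR-409-5p and miR-673-3p. Against 3 reads over the day 12 libraries together they were at least 246-fold lower for miR-543-3p and at least 575-fold lower for miR-679-5p, with the others between.

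Day 12 replicate 2 stood apart for this cluster, a pattern chosen after its values were seen. Of the 28 cluster entries with a day 12 read, 22 were highest in replicate 2, against 24 of the 169 other entries. The cluster summed to 14.7, 37.5 and 11.4 RPM at day 12, against 15540, 17130 and 12150 RPM at day 0, and kept 0.0876% without replicate 2 in place of 0.142%. In the other entries, replicate 1 was highest in 112 of 169. Over the tested entries Spearman's rho between libraries was 0.847 to 0.918 at day 12 and 0.995 to 0.997 at day 0, across entries and with far fewer reads at day 12; the part of depth in this was not tested.

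The arms of a hairpin were not always lost alike. Arm shares were taken for the 48 of 747 hairpins with at least 20 reads of both arms together in each library. A hairpin whose main arm had few reads at day 12 could pass through reads of its other arm. Hairpins whose arms were both nearly lost dropped out, so the counts and the ranking of arm shares are bound by this minimum. In 28 of the 48, 58.3%, the 5p share did not overlap between days. The arm that was the minor one at day 0 held a larger share at day 12 in 35 of 48, in 19 of them (39.6%) without overlap, while it held a smaller share without overlap in 9 (18.8%). Among the 9, the minor arms of miR-186, miR-10a and miR-92b had 0 reads in every day 12 library. At day 0 they held 0.120, 0.0735 and 0.0692%. Shares so low could hardly be seen in the day 12 reads of these hairpins, at most 119 in a library. Their place in the 9 and the 28 thus shows no change of arm. The median share of the arm that was the minor one at day 0 was 6.20% at day 12 and 2.57% at day 0.

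miR-295 shows this with many reads. Its 5p arm, the passenger strand, was 33.8, 20.2 and 24.9% of the reads of both arms at day 12, against 0.447, 0.447 and 0.487% at day 0, as the 5p arm kept 21.6% and the 3p arm 0.265%. In some neighbouring hairpins of the miR-290 cluster the 5p share also rose: it was 50.7% ± 14.2 at day 12 and 8.87% ± 0.904 at day 0 for miR-294, and 82.6, 87.0 and 81.8% at day 12 and 55.2, 55.6 and 58.0% at day 0 for miR-293. In miR-293 the 5p arm was already the larger one at day 0, so its minor arm lost share. For miR-291b the 5p share was 64.2% at day 12 and 45.8% at day 0, without overlap. For miR-291a (82.3 and 78.6%) and miR-292a (76.8 and 72.4%) the days overlapped (exact permutation p = 0.3 and 0.4). The sequences of the arms in question are these, with the seed in capitals.
miR-294-5p: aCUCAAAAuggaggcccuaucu
miR-293-5p: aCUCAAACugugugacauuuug
miR-293-3p: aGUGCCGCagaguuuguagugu
miR-21a-3p: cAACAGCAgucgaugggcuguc
miR-300-5p: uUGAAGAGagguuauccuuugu
miR-300-3p: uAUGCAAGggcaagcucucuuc
The largest rise in 5p share was that of miR-300, a Dlk1-Dio3 hairpin, where all reads of day 12 replicate 1, 60.7% of those of replicate 2 and 95.5% of those of replicate 3 were 5p, against 2.53, 2.81 and 2.38% at day 0. It rests on 24, 28 and 22 reads of both arms at day 12, among which the 3p arm had 0, 11 and 1. Replicate 2 is thus again the library with the cluster's main arm. By its 3p reads alone miR-300 would not have met the read minimum, nor would miR-294, miR-101a or miR-291b. miR-101a, the fifth in size after miR-294, miR-293 and miR-295, had a 5p share of 23.1% ± 0.781 at day 12 and 1.66% ± 0.126 at day 0. For miR-300, miR-294, miR-293, miR-295, miR-101a and miR-291b the exact permutation p was 0.1 each.

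Falls in the 5p share were smaller. miR-21a was at 79.7, 95.2 and 84.7% 5p at day 12, against 96.8, 97.1 and 96.5% at day 0, as its 3p arm kept 12.1% and its 5p arm 2.31%. The 3p arm had 788, 133 and 334 reads at day 12 and kept 6.36% without replicate 1. miR-30b was at 67.7, 93.5 and 93.8% at day 12, against 95.1, 94.6 and 95.5% at day 0, with replicate 1 of day 12 well under the rest. miR-744 averaged 92.8% ± 4.47 at day 12 and 99.3% ± 0.0574 at day 0, and miR-93 averaged 94.2% ± 2.63 at day 12 and 99.3% ± 0.00671 at day 0. For miR-3068, which overlaps a small nucleolar RNA, the 5p arm had 0 reads at day 12 and 6.58% ± 2.34 at day 0.

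The arms of miR-182 also differed in amount. miR-182-3p was at 24.2, 17.2 and 15.1 RPM at day 12, against 19.1, 19.9 and 16.4 RPM at day 0, with overlap (log2 0.03, adjusted p = 0.927; -0.19 without day 12 replicate 1), while its partner kept 3.04%. The 3p arm held 319, 255 and 217 reads at day 12. The minor arm thus overlapped its day 0 level in RPM where the main arm was lower in every library.

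**Figure D5:**
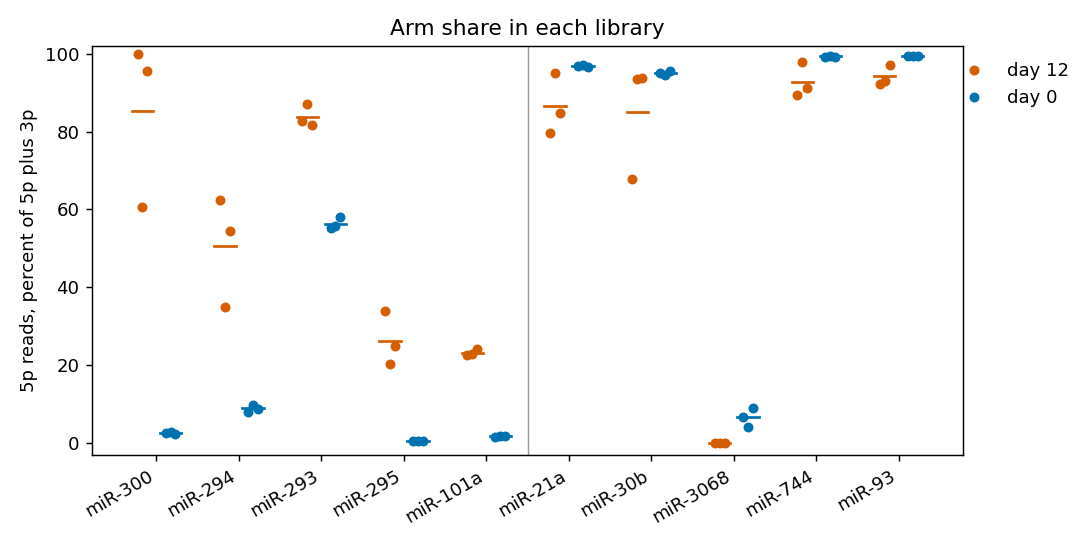
Points give the 5p reads as percent of 5p plus 3p reads (y axis) in each library for 10 hairpins (x axis), day 12 left of day 0 within each, with a line at the mean of 3 libraries. Left of the grey line are the 5 largest rises, led by miR-300 and miR-294, and right of it the 5 largest falls, where 1 day 12 library of miR-30b lies well under the other two.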

How the data were processed

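Libraries were made with a TruSeq small RNA kit and sequenced as 50-base single reads, per the labels' protocols. The labels name cutadapt 1.8 for adapters, Bowtie2 with mm10 for alignment and HTSeq with miRBase 21 for counting; the mapping quality limit is not given in the sources used here. The deposited values are raw counts per microRNA locus, with 5 summary lines of unassigned reads (99.4 to 99.6% of reads at day 12, 78.7 to 84.2% at day 0) that entered library totals only. Copies of 1 identifier were summed.

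Counts were tested with edgeR 4.0.16 in R 4.3.3 (quasi-likelihood, filterByExpr by day, minimum count 10, 1 mean per day over 15 libraries), with all reads as library size and with TMM factors; DESeq2 1.42.0 was an alternative. The script was tested on simulated data. Percent kept is mean day 12 RPM over mean day 0 RPM. Shares were compared by exact permutation. RefSeq sequences matched 227 of 260 tested entries. Python 3.11.15, numpy 2.4.6, pandas 2.3.3, scipy 1.17.1 and matplotlib 3.10.9 were used.

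Members and lists were chosen with earlier results of these data known. Named were the 10 most abundant entries of each day, every entry called higher in RPM, the 10 largest relative rises and falls with at least 50 reads per 1000000 microRNA reads on either day, list members, and the 5 largest rises and falls of 5p share; others were chosen after their values were seen. Deviations of same-numbered libraries correlated at 0.197, 0.0565 and 0.251, against -0.228 to 0.0433 for libraries of unlike number. The labels state no pairing, so the main tests did not pair libraries, and fits with a replicate block are given below.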

Additional observations from a re-analysis of the deposited data

How the results depend on the processing

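The 243 entries changed in RPM became 392 with the 6 libraries alone (413 tested) and 658 with no filter (1225 tested), and all 243 were among them; leaving out a library gave 248 to 288. The 180 relative calls became 310 with no filter and 183 to 201 without a library, and 166 of 237 without structural entries. With the replicate block they were 244 and 178, and the log2 share of microRNAs stayed at -5.43; the block changed no call among the named entries. Each day 12 library correlated best with the day 0 library of its own number, a hint from the data only. The log2 share was -4.97 over uniquely aligned reads, -6.50 without structural entries, and -5.68 to -5.29 without a library. Over reads not on microRNAs the differences between days were 5.17 points (reads outside microRNAs), 6.21 (low mapping quality), -11.3 (not aligned) and -0.0589 (ambiguous, -0.0614 over aligned reads), against 8.86, 15.8, -6.24 and -0.0476 over all reads. The 10 most abundant entries differed by 15.5 points without structural entries in place of 22.5, and entries with a read by -29.0 at equal depth in place of -480.3 (without structural entries the direction turned). Hairpins without overlap were 50 at a minimum of 5 reads and 13 at 50, in place of 28, and 28 to 35 without a library. Among 49 single values, 636 of 651 alternatives kept direction and side of the threshold. Of the rest, 6 lost their call (miR-30c-5p, miR-6236, miR-409-5p and miR-543-3p, each without a library), 4 gained one, and 5 turned. The 5 that turned were of entries not past the threshold: miR-182-3p (-0.0674 over aligned reads, -0.19 to 0.17 without a library), miR-2137 (-0.0569 to 0.26 without a library) and miR-6539 (0.32 over unique reads). The cause was not tested. Depth limits day 12: 3 reads over its libraries are 0.0707 RPM.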
